A study of Canis lupus familiaris with 20 samples.

Results

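The mitochondrial chromosome of the dog was examined in RNA sequencing counts from growing vertebral cartilage. Its members are all 37 genes that the deposited table places on the chromosome MT, of 24580 genes in all. They fall into 13 protein genes, 2 ribosomal RNA (rRNA) genes and 22 transfer RNA (tRNA) genes. The table gives positions and strands without gene names. Members are therefore called by the gene that stands at their place in the gene order shared by mammalian mitochondrial genomes. All 37 matched that order in strand, and those under 100 bases were exactly those at the places of tRNA genes. Positions are those of the build CanFam3.1.

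The tissue was epiphyseal cartilage of the T12 vertebra, with the cranial and caudal ends of each animal combined in 1 sample. Affected dogs, of a naturally occurring model of mucopolysaccharidosis VII (MPS VII), were homozygous for a missense mutation in GUSB, the gene of a lysosomal enzyme that helps to break down glycosaminoglycans. Control dogs were litter-matched heterozygotes for the same mutation, so every animal carried at least 1 copy of it. There were 5 control and 5 MPS VII dogs at postnatal day 9, and 5 and 5 at postnatal day 14, each with 1 library.

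Mitochondrial DNA is copied and transcribed inside the organelle, from both strands, into long precursors that span many genes. The precursors are cut mostly at the tRNAs that lie between the other genes, which frees the rRNAs and the messenger RNAs. The protein genes code for core subunits of the respiratory chain: the ND genes for complex I, CYTB for complex III, the COX genes for complex IV and the ATP genes for the ATP synthase. The rRNAs and tRNAs serve the organelle's own ribosomes. Because the genes of a strand share precursors, their mature levels differ through processing and stability as well as through transcription. Cartilage cells live with little oxygen and are known for drawing much of their energy from glycolysis.

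Total counts were 21419930 to 28028365 in the libraries of day 9 and 15772761 to 22471728 in those of day 14, so depth went with age. The share of even numbers among counts above 0 and under 200, which is high where each read pair gives 2 counts, was 71.2% to 76.4% at day 9 and 65.2% to 74.8% at day 14. One library stood apart: on the third principal component of the log2 normalised counts, with 11.4% of the variance, MPS VII day 9 replicate 3 lay at 85.0 and the others of its group at -17.8 to -4.70. The gene with the most counts in the whole table, at 6756994 to 6787846 of chromosome 27, made up 7.48% of its counts, against 25.4% to 33.2% in the others of its group. That gene touches every share, since it made up 31.9% ± 3.62 of counts in control dogs of day 9 and 17.5% ± 5.83 in those of day 14 (SD, n = 5 each). The markers of cartilage and of other cell types were not tested, because the identifiers could not be paired with symbols.

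Of the 37 members, 19 held at least 10 counts over the 20 libraries: all 13 protein genes, both rRNA genes and 4 tRNA genes. Another 14 had no count in any library, all of them tRNA genes, and the remaining 4, also tRNA genes, held 2 counts at most. The filter on low counts passed 17 members, leaving out the tRNA-Cys gene with 134 counts and the tRNA-Ser(UCN) gene with 20. The tRNA genes are 60 to 75 bases long, shorter than the 100 bases of a read. Those with at least 10 counts, tRNA-Asn, tRNA-Cys, tRNA-Ser(UCN) and tRNA-Pro, were 4 of the 8 that lie on the minus strand. None of the 14 tRNA genes on the plus strand held more than 2 counts. Among all 24580 genes, COX3 ranked 9th by total counts with 2509832, COX1 10th with 2307071, ATP6 13th with 1950346 and COX2 16th with 1731119.

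Mitochondrial genes took between 2.06% and 5.07% of all counts. In control dogs of day 9 the libraries held 2.88%, 2.06%, 2.90%, 3.004% and 2.17%, and in MPS VII dogs of that age 2.27%, 2.99%, 2.54%, 2.28% and 2.75%. The ranges of both genotypes lay over each other, with means of 2.60% ± 0.449 and 2.57% ± 0.306 (SD, n = 5 each). At day 14 the control libraries held 5.07%, 3.68%, 2.81%, 4.09% and 3.35%, and the MPS VII libraries 2.61%, 2.90%, 3.71%, 2.43% and 3.68%.

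The mean share at day 14 was 3.80% ± 0.854 in controls and 3.07% ± 0.598 in MPS VII dogs, again with overlapping libraries. With age, 4 of the 5 control libraries of day 14 stood above the highest of day 9, and replicate 3 at 2.81% did not. Counted outside the most abundant gene, the share in controls was 3.82% ± 0.660 at day 9 and 4.57% ± 0.716 at day 14, so the gap between the ages shrank from 1.20 to 0.748 percentage points. The same values in MPS VII dogs were 3.49% ± 0.537 and 3.92% ± 0.599. No test was made of these shares, which are sums over the members. In bulk tissue, more cells rich in mitochondria cannot be told apart from more mitochondrial RNA per cell.

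**Figure D1:**
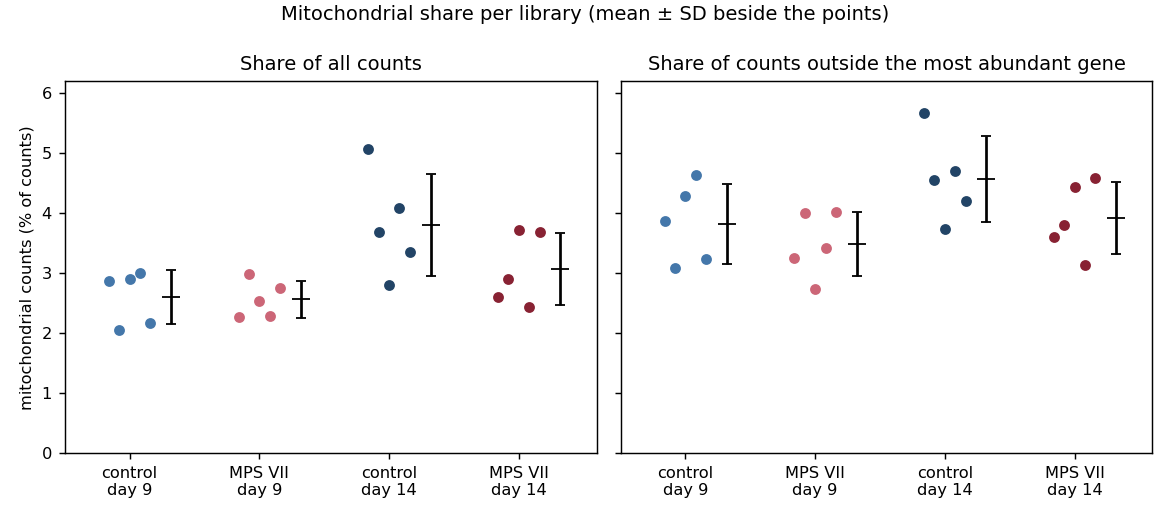
Mitochondrial counts as a percent of all counts (left) and of the counts outside the most abundant gene (right), with 1 point per library, and the mean with SD beside each group of 5. Control day 14 ran from 2.81% to 5.07% on the left, and from 3.73% to 5.66% on the right, where all groups overlap.

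Levels of different genes were compared as CPM (normalised counts scaled to a common library size) per kilobase of gene. Places of short genes, such as ATP8 with 204 bases, depend on this scaling by length, which was not tested. In control dogs of day 9 the order was led by COX3 with 9198 ± 1777, ATP6 with 7321 ± 1729 and COX2 with 6327 ± 1413 CPM per kilobase (SD, n = 5), whose spreads overlap. A gap followed, to COX1 with 2426 ± 427, ND3 with 2343 ± 641, ND1 with 1909 ± 399.5 and ND4 with 1730.1 ± 371. These neighbours lay within each other's spread. CYTB with 1279 ± 283 and ND2 with 1234 ± 342 came next, and then ATP8, ND4L, ND6 and ND5 with 629 to 441 CPM per kilobase. The 12S rRNA at 272 ± 172.5 and the 16S rRNA at 161 ± 170.5 closed the order in libraries made from polyadenylated RNA.

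By day 14 that order had changed among the control dogs. ATP6, COX3 and COX2 still led with 6303 ± 878, 6219 ± 807 and 5878 ± 825 CPM per kilobase, differing by less than their spread. COX1 stood close below at 5149 ± 702. ATP8 moved from the 10th to the 5th place, at 3621 ± 700.1 CPM per kilobase, and ND4L from the 11th to the 7th, at 1679 ± 225. ND3 went the other way, from the 5th to the 10th place, at 997 ± 132. Single places were not firm: at day 9 ATP8, ND4L and ND6 lay at 629 ± 212, 618 ± 122 and 612 ± 161. At day 14 ND3 lay close to ND2, at 973 ± 151. In MPS VII dogs ATP8 likewise went from the 11th to the 5th place and ND3 from the 5th to the 11th. There ATP8 stood at 3797 ± 1376 at day 14, close to COX1 at 3801 ± 295 CPM per kilobase.

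The change from day 9 to day 14 in control dogs was tested gene by gene, in 1 model over the whole table. Of the 17 tested members, 5 rose and 4 fell (quasi-likelihood test of edgeR, adjusted p under 0.05, with the Benjamini-Hochberg adjustment made across the 14550 genes tested). That is 52.9% of them, where 42.5% of all tested genes were called, 21.8% as higher and 20.7% as lower, so the members' share lay near that of the table. The median log2 fold change was -0.11 for the members and -0.06 for all tested genes. The libraries of both ages did not overlap in 7 of the 17, where 38.4% of all tested genes did not overlap. The members thus did not shift together: the changes ran from -1.25 to 2.53 on the log2 scale.

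Among MPS VII dogs, which share no library with the controls, 4 members rose and 3 fell between the same ages. That is 41.2% of the 17, against 22.7% of all tested genes, of which 12.7% rose and 9.92% fell, with a median log2 fold change of -0.09 for the members and for all tested genes alike. Libraries did not overlap in 4 members, against 11.5% of all tested genes. All 7 were also called in controls, in the same direction, and the controls added ND1 and ND5. How many of all tested genes were called in both genotypes was not counted. Both age changes came from 1 fit with a shared estimate of the spread. Fitted on the MPS VII libraries alone, 4 members kept their call there: ATP8, ND4L and COX1, which rose, and ND3, which fell. The share of all tested genes called in that smaller fit was not counted.

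**Figure D2:**
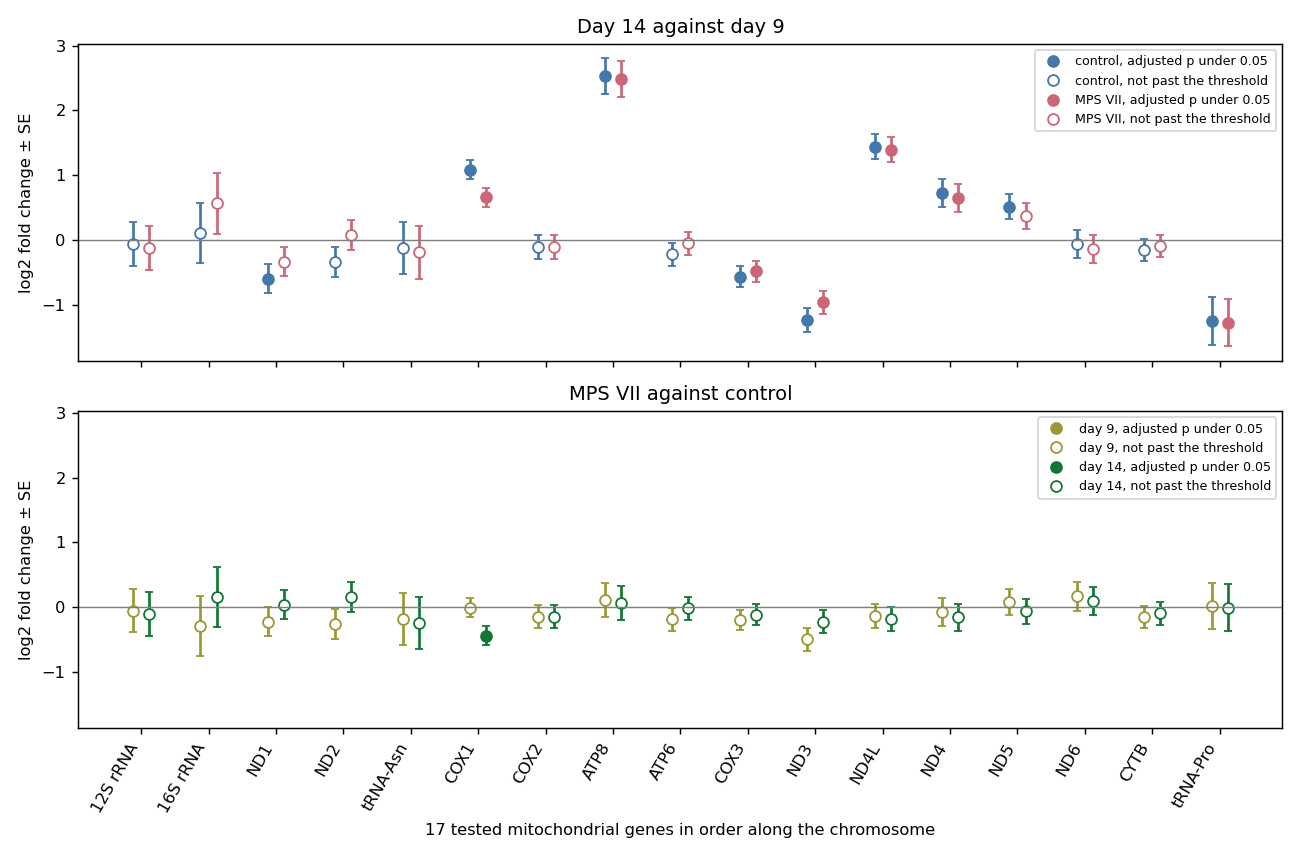
Log2 fold change with SE of the 17 tested mitochondrial genes in their order along the chromosome, for age in each genotype (top) and for genotype at each age (bottom). Filled points passed an adjusted p of 0.05. ATP8 stands at 2.53 and 2.49 in the upper panel, while COX1 at day 14 is the only filled point of the lower one.

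Of the ATP synthase genes, ATP8 had the largest change among the members. It codes for a short subunit of the membrane part of the enzyme and lies on the plus strand from 7803 to 8006, with its last 43 bases shared with ATP6. Control libraries held 109, 97.1, 144, 197 and 94.4 CPM at day 9, and 941, 737, 570.2, 799 and 646 CPM at day 14. The MPS VII values were 108, 141, 86.8, 221 and 133 CPM at day 9, and 549, 583, 1109.6, 579 and 1052 CPM at day 14. In both genotypes every library of day 14 stood above every library of day 9, and in MPS VII dogs replicates 3 and 5 of day 14 stood above the rest.

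The log2 fold change of ATP8 was 2.53 ± 0.28 in controls (SE, edgeR adjusted p = 5.47e-07) and 2.49 ± 0.27 in MPS VII dogs (edgeR adjusted p = 1.48e-06). Among all 14550 tested genes, 120 rose at least as much in controls and 27 in MPS VII dogs, ATP8 included. The 2 age changes differed by -0.04 on the log2 scale (95% interval -0.80 to 0.73).

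ATP6, which codes for the subunit that forms the proton path and is read from the same messenger RNA as ATP8, gave other values. It lies from 7964 to 8644. Controls stood at 4986 CPM ± 1177 at day 9 and 4292 CPM ± 598 at day 14, and MPS VII dogs at 4383 CPM ± 602 and 4244 CPM ± 747 (SD, n = 5 each). Its log2 fold change was -0.22 ± 0.18 in controls and -0.05 ± 0.18 in MPS VII dogs, neither past the threshold.

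The ratio of both genes within a library does not depend on the scaling. Per 100 counts of ATP6, the control libraries held 2.31 to 3.01 counts of ATP8 at day 9 and 15.8 to 18.7 at day 14. The MPS VII libraries held 2.36 to 4.71 and 14.0 to 23.7. The ages were apart in both genotypes, and the genotypes overlapped at both ages. How the authors' counting treated reads that lie over the shared 43 bases is not given in the sources used here. The split of counts between ATP8 and ATP6 is therefore uncertain.

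The other overlapping pair, ND4L and ND4, moved in part alike. Both code for membrane subunits of complex I and are read from 1 messenger RNA. ND4L lies from 9911 to 10207 and shares 7 bases with ND4, which runs from 10201 to 11578. ND4L stood at 168, 142, 216, 227 and 164 CPM in controls of day 9 and at 594, 477, 428, 539 and 456 CPM in those of day 14. MPS VII libraries held 179, 199, 92.65, 178 and 189.7 CPM, and then 379, 407, 520.4, 333 and 561 CPM. The ages did not overlap in either genotype, and replicate 3 was the lowest of the MPS VII dogs of day 9.

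ND4L rose by 1.44 ± 0.19 on the log2 scale in controls and by 1.39 ± 0.19 in MPS VII dogs (edgeR adjusted p = 5.06e-06 and 1.75e-05). ND4 held 2271, 1781, 2773, 3028 and 2066 CPM in controls of day 9, and 4944, 3832, 3269.6, 4075 and 3611 CPM at day 14, with no overlap. The MPS VII libraries held 2144, 2598, 1344, 2383 and 2861 CPM, and then 3011, 3280.1, 4352, 2531 and 4579 CPM, where replicate 4 of day 14 lay inside the range of day 9. It rose by 0.73 ± 0.21 in controls (edgeR adjusted p = 0.00833) and by 0.65 ± 0.21 in MPS VII dogs (edgeR adjusted p = 0.0305).

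The call of ND4 in MPS VII dogs was lost with only those libraries in the fit (edgeR adjusted p = 0.107) and without day 9 replicate 1 or day 14 replicates 3 or 5. Per 100 counts of ND4 there were 7.41 to 7.99 counts of ND4L in controls of day 9 and 12.01 to 13.2 at day 14. The ratios in MPS VII dogs were 6.63 to 8.33 and 11.96 to 13.2. The ages did not overlap in this ratio in either genotype.

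The complex IV genes parted. COX1, the catalytic subunit that holds the site where oxygen is reduced, lies from 5349 to 6893. It stood at 3824, 3024, 4280.4, 4484 and 3126 CPM in controls of day 9 and at 9514, 7318, 6895, 8630.3 and 7416 CPM in controls of day 14. MPS VII libraries held 3803, 4033, 3814, 3350.3 and 3627 CPM at day 9, and 5958, 6119, 6039, 5069 and 6175 CPM at day 14. Day 14 stood above day 9 without overlap in both genotypes.

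COX1 rose by 1.09 ± 0.15 on the log2 scale in controls (edgeR adjusted p = 9.23e-06) and by 0.66 ± 0.15 in MPS VII dogs (edgeR adjusted p = 0.00349). Those changes differed by -0.43, with a 95% interval of -0.87 to 0.01 (edgeR adjusted p = 0.284), so a difference between the genotypes in the age change was not shown. COX1 took 12.5% of mitochondrial counts in controls of day 9 and 24.7% at day 14. The shares in MPS VII dogs were 13.9% and 20.5%.

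COX3, a subunit of the same complex without a metal centre, lies from 8644 to 9427. Controls held 6673, 5992, 8196, 9133 and 6060.4 CPM at day 9, and 5826, 4955, 4097, 4915 and 4586 CPM at day 14. MPS VII libraries held 5790.5, 6953, 4986, 6878 and 6854 CPM, and then 4506, 4369.6, 4528, 3999 and 5139.7 CPM. Control libraries of both ages did not overlap, and in MPS VII dogs replicate 3 of day 9 lay below replicate 5 of day 14.

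COX3 fell by 0.56 ± 0.16 on the log2 scale in controls (edgeR adjusted p = 0.00765) and by 0.48 ± 0.16 in MPS VII dogs (edgeR adjusted p = 0.0355). The fall in MPS VII dogs lost its call with only those libraries in the fit (edgeR adjusted p = 0.114), without a filter on low counts, and without any single library other than day 9 replicates 1 and 3, while DESeq2 called it (DESeq2 adjusted p = 0.00564). With library totals and no TMM (trimmed mean of M values) factors, the log2 fold changes were -0.11 in controls and -0.31 in MPS VII dogs, neither past the threshold (edgeR adjusted p = 0.598 and 0.212). COX2, which carries the site that takes electrons from cytochrome c, lies from 7034 to 7717. It gave 4327 CPM ± 967 and 4020.3 CPM ± 565 in controls, with log2 fold changes of -0.11 in both genotypes that did not pass. Per 100 counts of COX3 the control libraries held 49.1 to 57.3 counts of COX1 at day 9 and 148 to 176 at day 14. The ratio in MPS VII dogs went from between 48.7 and 76.5 to between 120.1 and 140.04.

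ND3, a small complex I subunit from 9496 to 9842, had the largest fall of a protein gene. Control libraries held 707, 636, 999, 1102 and 620.3 CPM at day 9, and 414, 351, 287, 345 and 332 CPM at day 14. MPS VII libraries held 513, 643, 439.6, 629 and 659.7 CPM at day 9, and 266, 284, 339, 221 and 374 CPM at day 14. Every library of day 14 was below every library of day 9 of its genotype. ND3 fell by 1.23 ± 0.18 on the log2 scale in controls (edgeR adjusted p = 1.61e-05) and by 0.96 ± 0.18 in MPS VII dogs (edgeR adjusted p = 5.67e-04).

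ND3 also became rarer beside its neighbour COX3, from which a single tRNA gene separates it. Per 100 counts of COX3 there were 10.2 to 12.2 counts of ND3 in controls of day 9 and 7.00 to 7.24 at day 14, and 8.82 to 9.63 and 5.52 to 7.48 in MPS VII dogs.

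**Figure D3:**
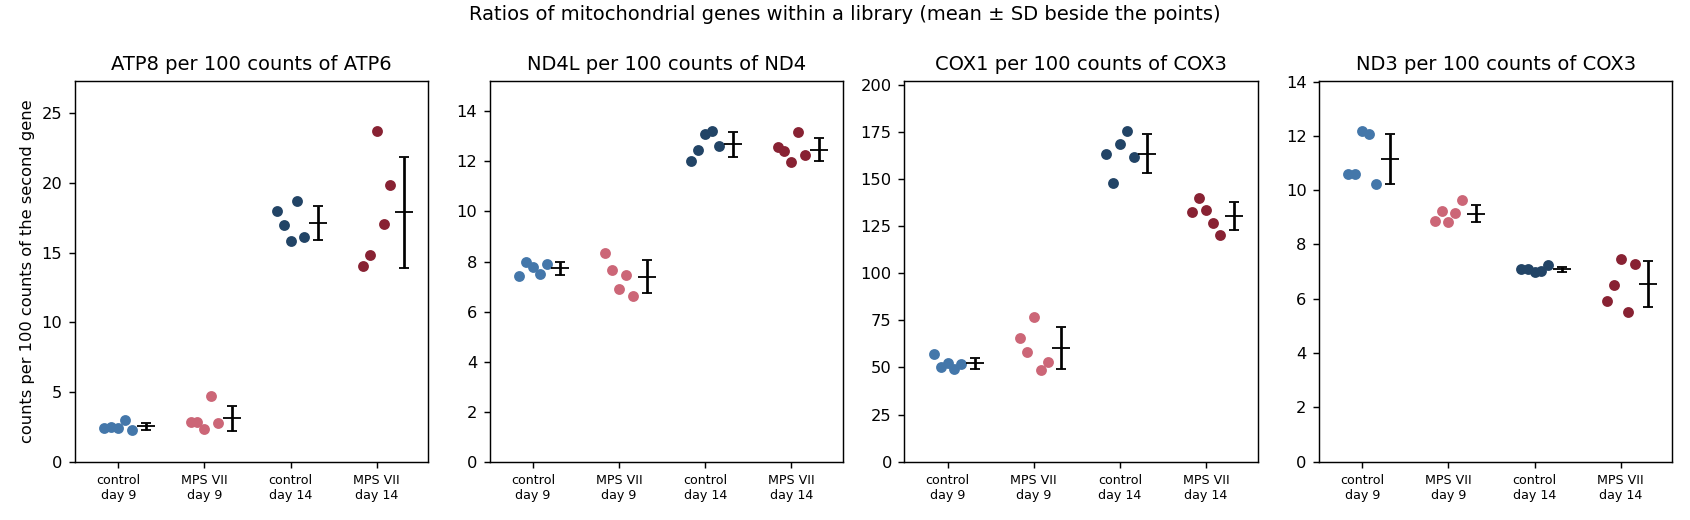
Counts of 1 mitochondrial gene per 100 counts of another in the same library, with 1 point per library and the mean with SD beside each group of 5. ATP8 over ATP6 went from 2.31 to 3.01 in controls of day 9 up to 15.8 to 18.7 at day 14, and COX1 over COX3 separates the genotypes at day 14 only.

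Changes of the other complex I genes were smaller. ND1, from 2747 to 3703, had control libraries of 1666, 1441, 1925, 2438 and 1665 CPM at day 9 and 1441, 1176, 1007.5, 1207 and 1205 CPM at day 14. The groups met only at their edges, with 1440.7 CPM as the lowest of day 9 and 1441.5 CPM as the highest of day 14. Its fall of 0.60 ± 0.22 on the log2 scale passed (edgeR adjusted p = 0.0336), but not with 1 of 6 single libraries left out (control day 9 replicates 3 and 4, and control day 14 replicates 2, 3, 4 and 5), nor with library totals and no TMM factors, at -0.15 (edgeR adjusted p = 0.607). Among MPS VII dogs the log2 fold change of ND1 was -0.33 ± 0.22 (edgeR adjusted p = 0.275). Without MPS VII day 9 replicate 3, which held 751 CPM against 1433 to 2059.9 CPM in the others of its group, it was -0.48 and passed (edgeR adjusted p = 0.0339).

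ND5, from 11778 to 13598, went from 803 CPM ± 136 to 1148 CPM ± 192 in controls, a rise of 0.51 ± 0.20 on the log2 scale (edgeR adjusted p = 0.0382). That call was lost without control day 9 replicate 1, 2 or 5 and without control day 14 replicate 1 or 2. With library totals and no TMM factors the rises in controls were larger, at 0.96 for ND5 and 1.18 for ND4, and the fall of ND3 smaller, at -0.78. MPS VII dogs gave 0.37 ± 0.20 (edgeR adjusted p = 0.169). ND2 did not pass in either genotype, with -0.34 ± 0.23 and 0.07 ± 0.23. CYTB, the core subunit of complex III, gave -0.15 ± 0.17 and -0.09 ± 0.17, and ND6 gave -0.07 ± 0.22 and -0.13 ± 0.22.

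**Figure D4:**
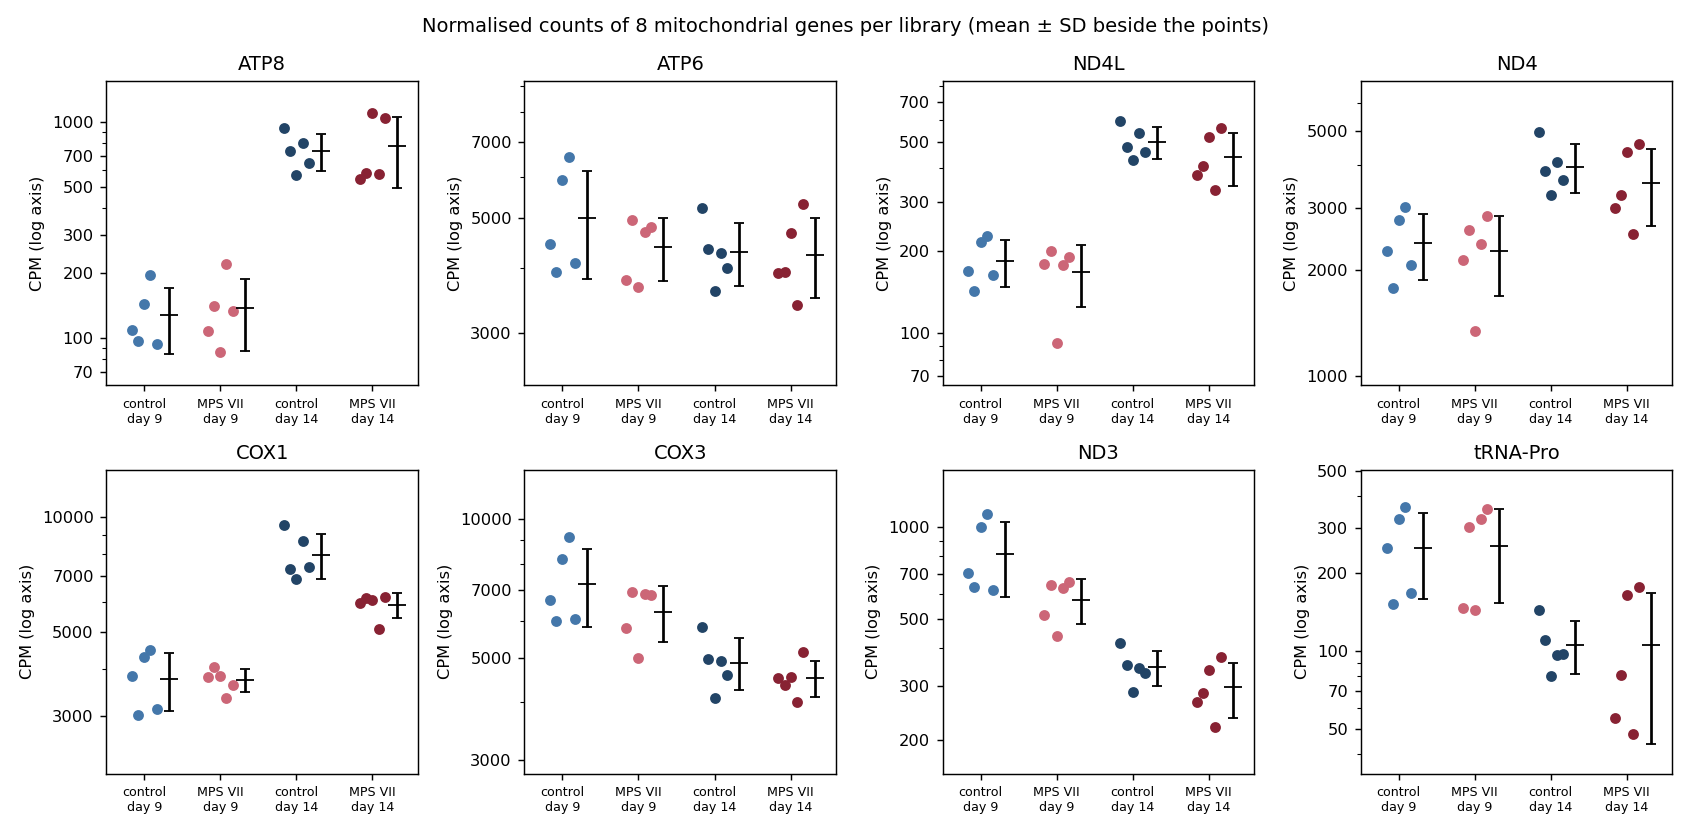
Normalised counts (CPM, log axis) of 8 mitochondrial genes, with 1 point per library and the mean with SD beside each group of 5. ATP8 rose from 94.4 to 197 CPM in controls of day 9 up to 570.2 to 941 CPM at day 14, and ND3 fell from 620.3 to 1102 CPM down to 287 to 414 CPM.

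Gene length was set beside these changes. ATP8 with 204 bases, ND4L with 297 and ND3 with 347 are the shortest protein genes of the chromosome, and the first pair rose while the third fell. Outside the chromosome, 254 tested genes have exon lengths between 204 and 347 bases. With age in controls their median log2 fold change was -0.34, with 21 that rose and 84 that fell. The MPS VII dogs gave a median of -0.26, with 7 that rose and 29 that fell. The part of length in the changes of the mitochondrial genes was not tested. Depth and the share of even counts moved with age, and their part was not tested either. With all counts halved, as if both mates of a pair had been counted, 9 members in controls and 7 in MPS VII dogs were again called. The share of all tested genes called with halved counts was not counted.

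The tRNA-Pro gene, from 15392 to 15457 on the minus strand, held 78962 of the 79476 counts of all tRNA genes. It is the last gene before the control region, where replication and transcription begin. Its 66 bases are fewer than the 100 of a read, so its counts were not shown to be of mature tRNA. Control libraries held 252, 152, 324, 361 and 169 CPM at day 9, and 145, 111, 80.1, 96.6 and 97.3 CPM at day 14. MPS VII libraries held 147, 302, 144, 324 and 356 CPM at day 9, and 55.1, 81.1, 166, 47.8 and 178 CPM at day 14. The ages did not overlap in controls, and they overlapped in MPS VII dogs, where replicates 3 and 5 of day 14 lay above the 2 lowest libraries of day 9.

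It fell by 1.25 ± 0.37 on the log2 scale in controls (edgeR adjusted p = 0.0106) and by 1.27 ± 0.37 in MPS VII dogs (edgeR adjusted p = 0.0189). The call in MPS VII dogs was lost with only those libraries in the fit (edgeR adjusted p = 0.0715) and without day 14 replicate 2 (edgeR adjusted p = 0.0563). With library totals and no TMM factors it was lost in both genotypes, at -0.79 in controls and -1.05 in MPS VII dogs on the log2 scale (edgeR adjusted p = 0.0875 and 0.0609). Inside the groups, the level of tRNA-Pro was set beside the share of even counts. The 5 control libraries of day 9 had the same order in both, from 73.2% even counts and 152 CPM to 76.3% and 361 CPM. Among MPS VII dogs of day 14, the libraries with 65.2%, 66.5% and 68.5% even counts held 55.1, 47.8 and 81.1 CPM, and those with 73.5% and 74.8% held 178 and 166 CPM. The orders agreed less in the other groups. Controls of day 14 with 67.9%, 70.6%, 70.8%, 71.9% and 72.8% even counts held 80.1, 111, 96.6, 97.3 and 145 CPM. MPS VII dogs of day 9 with 71.2%, 75.1%, 75.7%, 76.0% and 76.4% held 147, 302, 356, 324 and 144 CPM, where replicate 3 had the highest share and the lowest level. The part of this measure in the fall of tRNA-Pro was not tested.

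**Figure D5:**
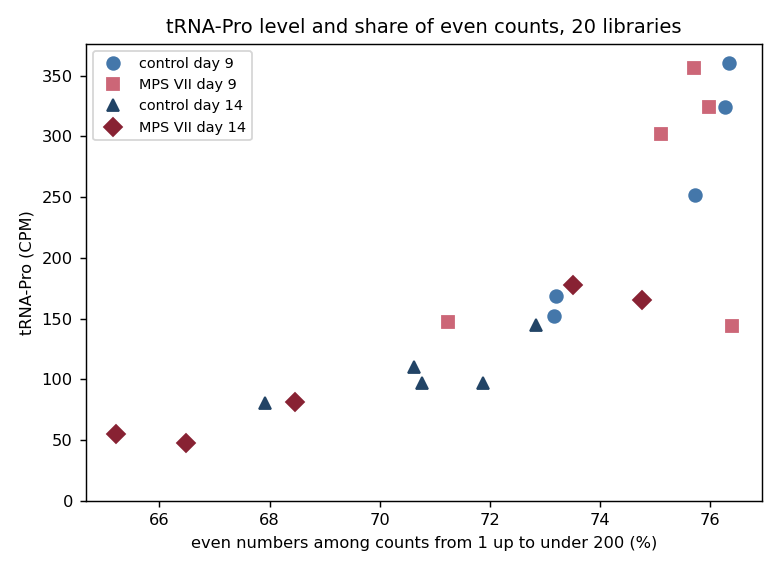
Counts at the tRNA-Pro gene (CPM) against the percent of even numbers among counts above 0 and under 200, with 1 point per library and a symbol for each of the 4 groups. Levels run from 47.8 CPM, at 66.5% even counts, up to 361 CPM, at 76.3%, and MPS VII day 9 replicate 3, at 76.4% and 144 CPM, lies away from the others.

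In the rRNA genes, single libraries of day 9 stood far above the rest of their group. The 12S rRNA gene, from 70 to 1023, held 181, 183, 218, 551 and 162 CPM in controls of day 9, and the 16S rRNA gene, from 1091 to 2670, held 119, 113, 175, 735 and 133 CPM. Replicate 4 was thus the highest in both. Replicate 3 was the highest of the MPS VII dogs of day 9, with 476 CPM of the 12S and 330.3 CPM of the 16S rRNA, against 162 to 226 CPM and 146 to 219.9 CPM in the others. At day 14 the 12S rRNA held 169 to 363 CPM in controls and 169 to 299.8 CPM in MPS VII dogs, and the 16S rRNA 155 to 469 CPM and 189 to 466 CPM.

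With age in controls, the log2 fold changes of -0.07 ± 0.34 for the 12S and 0.11 ± 0.46 for the 16S rRNA did not pass. Without control day 9 replicate 4, the 16S rRNA gave 1.03 and passed (edgeR adjusted p = 0.0167). The values in MPS VII dogs were -0.12 ± 0.34 and 0.56 ± 0.47. Both rRNAs together made up 1.07% to 3.75% of mitochondrial counts.

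Between genotypes few members passed. At day 9 none of the 17 did by edgeR, where 8.38% of all tested genes were called, 6.18% as higher and 2.21% as lower in MPS VII dogs. An unadjusted edgeR p under 0.05 was found for 3303 of all 14550 tested genes and for 1 of the 17 members. That 1 was ND3, with 813 CPM ± 222 in the control group and 577 CPM ± 96.1 in the MPS VII group (SD, n = 5 each). On the log2 scale it differed by -0.49 ± 0.18 (95% interval -0.86 to -0.13, edgeR adjusted p = 0.0940). DESeq2's Wald test called it, at -0.51 on the log2 scale (DESeq2 adjusted p = 0.0455), and called no other member. The libraries of both genotypes overlapped in each of the 17, where they did not in 8.09% of all tested genes. Per 100 counts of COX3, the ND3 counts of both genotypes did not overlap at day 9, with 10.2 to 12.2 in controls and 8.82 to 9.63 in MPS VII dogs. This ratio uses the same ND3 counts, so it is not separate support, and it was not tested. The median log2 fold change at day 9 was -0.15 over the 17 members and 0.02 over all tested genes, with 13 members below 0 and 4 above.

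The intervals at day 9 show what these libraries could tell. COX1, at -0.01, had a 95% interval of -0.32 to 0.30, and ATP8, at 0.11, one of -0.44 to 0.65. The 16S rRNA, at -0.29, had the widest, from -1.26 to 0.68.

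At day 14, 1 of the 17 members passed, COX1, where 22.0% of all tested genes were called, 11.3% as higher and 10.7% as lower. Control libraries held 6895 to 9514 CPM and MPS VII libraries 5069 to 6175 CPM, so the genotypes did not overlap, as in 19.1% of all tested genes. The fold change of COX1 was -0.44 ± 0.15 on the log2 scale, lower in MPS VII dogs (edgeR adjusted p = 0.0396). The call rested on most of the libraries: it was lost without any single one other than control replicates 2 and 3 and MPS VII replicate 3, with edgeR adjusted p up to 0.113. Over all 10 of these fits the log2 fold change ran from -0.49 to -0.36. The call was also lost without a filter on low counts (edgeR adjusted p = 0.0558), and DESeq2 made it (DESeq2 adjusted p = 0.00131).

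The ratio of COX1 to COX3 separated the genotypes at day 14. It uses the same COX1 counts, so it is not separate support for the call. There were 163 ± 10.3 counts of COX1 per 100 counts of COX3 in controls and 131 ± 7.47 in MPS VII dogs, with 148 as the lowest control and 140.04 as the highest MPS VII library. At day 9 the same ratio was 52.1 ± 3.12 and 60.4 ± 11.02, and the libraries overlapped. The other 16 members lay between -0.24 and 0.16 on the log2 scale at day 14, ND3 among them with -0.22 ± 0.18. ATP8 differed by 0.07 (95% interval -0.47 to 0.61) and ND4L by -0.18 (95% interval -0.57 to 0.21).

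Whether age acted differently on both genotypes was tested as an interaction. None of the 17 members passed by edgeR or DESeq2, where edgeR called 3.26% of all tested genes, 0.825% as higher and 2.43% as lower. None of the 17 had an unadjusted edgeR p under 0.05, against 2689 of all 14550 tested genes. For ND4L the difference was -0.05 (95% interval -0.60 to 0.50) and for ND3 0.27 (95% interval -0.25 to 0.79). These intervals leave room for differences of the size seen between genotypes at a single age.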

How the data were processed

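The authors deposited raw counts per gene, with exon positions, strand and length, per the file headers. Per the labels' protocols, libraries were made with a stranded mRNA kit, and paired 100-base reads were mapped to CanFam3.1 and Ensembl build 77. STAR 2.4.0j, HTSeq, edgeR, CASAVA 1.8.2 and bcl2fastq appear in the submitters' processing notes, without roles. How strand and reads over more than 1 gene were handled in counting is not given in the sources used here. Overlapping genes, and any gene whose opposite strand is transcribed, are therefore uncertain.

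Counts were tested with edgeR 4.0.16 in R 4.3.3: filterByExpr on the 4 groups (14550 of 24580 genes kept), trimmed mean of M values (TMM) scaling, 1 mean per group over 20 libraries, robust quasi-likelihood fit, and Benjamini-Hochberg adjustment over all tested genes at 0.05. SE is the log2 fold change over the square root of F. CPM are counts scaled by the TMM-adjusted library size. No 2 libraries of a group were copies (chi-square per gene 16.7 to 607 over 40 pairs). DESeq2 1.42.0, other scalings, no filter, halved counts, smaller fits and leaving out each library were the alternatives.

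Each library was taken as 1 animal; litters and sexes were not used. The members, lists and rules were chosen with earlier results of these data known. By the rule for named genes, protein and rRNA genes are described singly and tRNA genes where called or among the 3 with most counts. Of the gene identifiers, 0 matched the symbol table (assembly UU_Cfam_GSD_1.0), so lists of cell type markers and of nuclear genes of the respiratory chain and of mitochondrial expression were not tested. No count column lacked a sample. No sequences were used here.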

Additional observations from a re-analysis of the deposited data

Results flagged for a closer look

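In 8 of 100 sets of 5 libraries, 1 library lay far from the other 4, where chance alone flags about 1 in 20 independent sets. These sets share libraries and in part counts, so no excess over chance can be read from that number. Control day 9 replicate 4 accounted for 4 of the 8. It held 551 CPM of the 12S rRNA against 162 to 218 CPM in the others, and 735 CPM of the 16S rRNA against 113 to 175 CPM. It also had 133 counts of the 16S per 100 counts of the 12S rRNA against 61.7 to 82.3, and 3.01 counts of ATP8 per 100 counts of ATP6 against 2.31 to 2.48. MPS VII day 9 replicate 3 held 476 CPM of the 12S rRNA against 162 to 226 CPM, and 92.65 CPM of ND4L against 178 to 199 CPM. MPS VII day 9 replicate 4 had 4.71 counts of ATP8 per 100 counts of ATP6 against 2.36 to 2.85. MPS VII day 14 replicate 4 held 5069 CPM of COX1 against 5958 to 6175 CPM.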

How the results depend on the processing

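Under all scalings, filters, fits and single libraries left out, ATP8, ND4L, COX1 and ND3 kept the direction and the call of their age change in both genotypes. Library totals without TMM moved the median of all tested genes with age in controls from -0.06 to 0.37, and that of the members from -0.11 to 0.34. Under that scaling 6 members were called in controls, where ND1, COX3 and tRNA-Pro lost their calls, and 5 in MPS VII dogs, where COX3 and tRNA-Pro did. Fitted on the MPS VII libraries alone, 4 members were called with age; without a filter 0 were called between genotypes at day 14; DESeq2 called 1 at day 9. With 1 library left out, 7 to 9 members were called with age in controls, 5 to 8 in MPS VII dogs, 0 to 1 between genotypes at day 14, and 0 at day 9 and for the interaction. For all these settings the share of all tested genes called was not counted. The counts of members therefore have no background beside them. The difference in mitochondrial share ran from 0.88 to 1.45 percentage points with age in controls, 0.339 to 0.659 in MPS VII dogs, -0.981 to -0.414 between genotypes at day 14 and -0.170 to 0.0653 at day 9. No called change reversed its sign. No paired analysis was possible because the labels give neither replicate numbers nor litters. The tRNA-Cys and tRNA-Ser(UCN) genes were not tested, because their counts were too low for the filter.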

Other observations

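ND6 is the single protein gene of the minus strand and lies beside CYTB, from 13582 to 14109. Per 100 counts of CYTB there were 22.0 ± 1.18 counts of ND6 in controls and 27.3 ± 3.28 in MPS VII dogs at day 9, and 23.4 ± 1.98 and 26.5 ± 3.79 at day 14 (SD, n = 5 each). At day 9 the lowest MPS VII library, at 24.4, stood above the highest control library, at 23.8, and at day 14 the libraries overlapped. ND6 shares 17 bases with ND5 on the other strand.

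The 16S rRNA stood at 84.7 ± 28.6 counts per 100 counts of the 12S rRNA in controls of day 9 and 87.4 ± 11.4 in MPS VII dogs, and at 108 ± 14.1 and 130.2 ± 20.1 at day 14. In MPS VII dogs the libraries of both ages did not overlap, with 97.4 as the highest of day 9 and 112 as the lowest of day 14.

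Genes on the minus strand together took 1.88% ± 0.186 of mitochondrial counts in controls of day 9 and 1.28% ± 0.107 at day 14, without overlap. In MPS VII dogs they took 2.22% ± 0.448 and 1.47% ± 0.303. There the ages overlapped, with 1.70% as the lowest of day 9 and 1.91% as the highest of day 14. Nearly all of these counts were of ND6, with 143711, and tRNA-Pro, with 78962.

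The tRNA-Asn gene, from 5107 to 5178, held 8 to 32 counts in every library, and its log2 fold change with age was -0.13 ± 0.40 in controls and -0.19 ± 0.41 in MPS VII dogs. The tRNA-Cys gene, from 5212 to 5279, held 7 to 12 counts in controls of day 14 and 3 to 5 in MPS VII dogs of that age. These did not overlap, as in 19.1% of all tested genes by CPM. At day 9 the counts of tRNA-Cys overlapped between the genotypes. The gene had too few counts for the filter, so no test was made.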
